A study of Mus musculus with 4 samples.

Results

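Open chromatin regions that were called in stem cells of both the small and the large intestine, but ranked higher in the large intestine, are described here. Overlapping peaks of the 4 deposited lists (1 bp or more) were joined into regions, and those called in all 4 lists on chromosomes 1 to 19 were kept. Each peak was ranked within its own list by its −log10 q, the authors' significance value for the peak against the local background. The rank was written as a percentile, with 100 for the strongest peak. A strong peak here means one with a high −log10 q, which need not have a high fold enrichment over that background. A region was taken as ranked higher in the large intestine when its lower large-intestinal percentile exceeded its higher small-intestinal percentile by 20 points or more. This difference is called the gap. Of 56633 shared regions, 2605 met the rule, which is 4.60%. The same rule turned around gave 1921 regions ranked higher in the small intestine, which is 3.39%, and 52107 shared regions met neither.

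All libraries came from Lgr5-EGFP-IRES-creERT2 mice aged 6 to 12 weeks, so both groups carried the same reporter at the Lgr5 locus. Small-intestinal stem cells (SISC, 2 libraries) were sorted as EGFP positive and CD24 negative from the segments next to the pylorus and to the cecum. Large-intestinal stem cells (LISC, 2 libraries) were sorted as EGFP positive from the cecum to the rectum, and no CD24 gate is named for them. The gate, the tissue stretch and the organ therefore changed together and cannot be told apart. The labels name no animals for the libraries. Replicate 1 of each group had peaks on the Y chromosome, 6 in SISC and 8 in LISC, and replicate 2 of each had 0, so the 2 libraries of a group were not repeats of 1 sample. With 2 libraries against 2 there are only 3 ways to split them, so no test over libraries was made.

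In ATAC-seq the transposase Tn5 inserts adapters where DNA is not wrapped tightly in nucleosomes, so a peak marks an accessible promoter, enhancer or other regulatory element. Lgr5 is a receptor for R-spondin, a Wnt-enhancing signal, and marks the dividing stem cells at the crypt base along the whole intestine. Stem cells of the small intestine feed an absorptive epithelium and sit beside Paneth cells, whereas those of the large intestine feed a mucus-rich, water-absorbing epithelium and sit beside deep crypt secretory cells.

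The promoters that carry the pattern are shown first, because there a member overlaps an annotated start site. A region can still cover start sites of more than 1 gene, as at Trib2 and the lncRNA gene Gm5432. Of the 2605 members, 58 (2.23%, exact 95% interval 1.69 to 2.87) overlapped a RefSeq protein-coding promoter window, taken as 250 bases before to 50 after a start site. The 4 below are the 250 bases before the start site, 5′ to 3′ on the gene's own strand, from the RefSeq promoter table of GRCm38.p6, which has the coordinates of mm10. Rxfp4, a receptor for the gut hormone insulin-like peptide 5, had the largest gap of the protein-coding promoters. Muc2, the main secreted mucin of the intestine, and Hoxa3, a homeobox factor of body position, are from the gene lists used below. The Hoxa3 window is at the far end of an annotated gene span, chr6:52169059-52213067, that also contains Hoxa4 and Hoxa5. Guca2a, which encodes the intestinal peptide guanylin, was added after its values were seen. Capitals mark the core AGATAA of sites for GATA-family factors, printed as TTATCT where it lies on the other strand. They also mark the AP-1 site, written TGANTCA, the E-box CAGCTG and the forkhead site TGTTTAC. No motif of the search lay in the Rxfp4 stretch.
Rxfp4, minus strand, chr3:88653143-88653392: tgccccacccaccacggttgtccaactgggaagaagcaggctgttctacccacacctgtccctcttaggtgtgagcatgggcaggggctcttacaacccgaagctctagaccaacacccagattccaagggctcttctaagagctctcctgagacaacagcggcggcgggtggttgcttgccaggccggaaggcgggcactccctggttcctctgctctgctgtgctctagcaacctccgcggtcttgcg
Hoxa3, minus strand, chr6:52213068-52213317: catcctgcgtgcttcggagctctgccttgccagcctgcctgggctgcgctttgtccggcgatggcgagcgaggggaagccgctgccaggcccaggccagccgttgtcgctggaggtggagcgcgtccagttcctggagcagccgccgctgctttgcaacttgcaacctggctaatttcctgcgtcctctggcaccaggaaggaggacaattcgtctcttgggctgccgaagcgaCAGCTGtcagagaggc
Muc2, plus strand, chr7:141690090-141690339: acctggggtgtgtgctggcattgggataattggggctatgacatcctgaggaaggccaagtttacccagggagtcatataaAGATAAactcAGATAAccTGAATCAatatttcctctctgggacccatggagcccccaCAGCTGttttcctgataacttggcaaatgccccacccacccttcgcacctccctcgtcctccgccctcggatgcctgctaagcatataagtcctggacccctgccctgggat
Guca2a, plus strand, chr4:119637482-119637731: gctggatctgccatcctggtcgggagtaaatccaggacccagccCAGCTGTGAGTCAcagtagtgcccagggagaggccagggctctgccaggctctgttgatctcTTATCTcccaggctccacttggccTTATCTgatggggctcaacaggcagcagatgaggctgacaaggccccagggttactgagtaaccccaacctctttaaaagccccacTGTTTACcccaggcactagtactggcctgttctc

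The region over the Muc2 promoter, chr7:141689399-141690511, stood at percentile 7.45 and 17.0 in SISC replicates 1 and 2 and at 72.2 and 56.6 in LISC replicates 1 and 2. Its −log10 q was 7.06 and 9.56 in SISC and 88.4 and 33.0 in LISC. The Rxfp4 promoter region, chr3:88652917-88654281, had percentiles of 14.2 and 11.1 in SISC and 83.3 and 75.1 in LISC. Both promoters were thus called in every library, near the bottom of the SISC lists and in the upper part of the LISC lists. For Hoxa3 the percentiles were 10.9 and 16.1 in SISC and 69.2 and 58.0 in LISC. Guca2a started from a higher level, at 44.4 and 59.5 in SISC against 88.0 and 84.3 in LISC, a gap of 24.8. In all 4 the LISC libraries lay above both SISC libraries, as the rule requires.

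The member promoters as a group were poor in CpG. The 58 genes gave 60 windows of 300 bases with a median GC content of 56.5% and a median CpG observed-to-expected ratio of 0.356. That ratio was above 0.6 in 17 of the 60 windows (28.3%, exact 95% interval 17.5 to 41.4), against 45.9% of windows in regions ranked higher in SISC, 74.96% in the other shared regions and 47.6% of all protein-coding windows. Searching both strands, AGATAA was in 12 member windows (20.0%, exact 95% interval 10.8 to 32.3). It was in 13.5% of windows of regions ranked higher in SISC, 5.49% of other shared regions and 9.65% of all protein-coding windows. Over all 32851 windows, lncRNA genes among them, it was in 11.2%. TGANTCA was in 10 member windows (16.7%), against 9.02%, 4.58%, 6.99% and 7.81% in the same order. Both shares have wide intervals because the windows are few, and base composition differed between the sets as given above. The part of composition in these shares was not tested.

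The remaining letters searched were CAGCTG, in 13 windows, GGGCGGGG (KLF and SP factors), in 13, AGGTCA (nuclear receptors), in 8, and TGTTTAC, in 5. Next came TTTATTG (CDX) and GGGTGTGG (KLF), each in 4, TGTGGTTT (RUNX) and ACATTCC (TEAD), each in 3, and CCAATAAA (HOX13), in 1. None of the 60 windows held TTTATGG (CDX), CTCGTAAA (HOX13), CAAAGTCCA (HNF4), CTTTGAT (TCF/LEF), ACCGGAAG (ETS) or ACAATGG (SOX), nor the longer HNF1, NFI and CTCF motifs. A count of 0 of 60 allows a share of up to 5%, taken as 3 counts, and the exact 95% interval reaches 5.96%. Over all 21263 protein-coding windows, CAGCTG was in 15.6%, GGGCGGGG in 23.6%, AGGTCA in 14.7%, TGTTTAC in 3.01%, TTTATTG in 3.85% and GGGTGTGG in 3.63%. TGTGGTTT was in 1.61%, ACATTCC in 3.38% and CCAATAAA in 0.912%. Of the motifs with 0 counts, CTTTGAT was in 3.22%, ACAATGG in 2.92%, TTTATGG in 2.26% and ACCGGAAG in 3.01%. CAAAGTCCA was in 0.451%, CTCGTAAA in 0.113%, and the CTCF, NFI and HNF1 motifs in 0.127%, 0.0329% and 0.00470%. These shares of motifs with 0 counts lay within the interval, so 0 of 60 does not show that they were rarer in member windows. A match describes the letters of the window and not a bound site. The sequences of members away from promoters were not analysed here.

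Members were weak peaks in SISC and moderately strong ones in LISC, and few were at the top of any list. The median member percentile was 25.0 and 30.7 in SISC replicates 1 and 2 and 70.6 and 71.3 in LISC replicates 1 and 2. The other shared regions had medians of 65.9, 69.9, 67.1 and 66.5 in the same order, so members departed from them mostly through low SISC ranks. The authors' fold enrichment over local background, a second measure from the same peak calls, had member medians of 4.23 and 3.94 in SISC and 8.37 and 6.16 in LISC. The median −log10 q was 14.2 and 15.7 in SISC and 82.5 and 56.7 in LISC. These levels restate the choice of the members and support nothing further. Fold and −log10 q depend on each library's unknown read depth, so the groups were compared by rank within a list, and raw values are printed only to describe a peak.

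The median gap was 29.3 points. The LISC libraries differed by a median of 4.60 percentile points over the members and the SISC libraries by 8.26, which the rule also shapes, since it asks for 2 high and 2 low values. In SISC, 83.4% of members lay under percentile 50 in both libraries, and 143 lay under percentile 10 in both, close to the limit of calling. In LISC, 483 members (18.5%) lay above percentile 80 in both libraries, against 28.6% of other shared regions. A gap of at least 30 points was held by 1235 members, of at least 40 by 556 and of at least 60 by 49. Leaving out a library makes the rule easier to meet, and the count was then 4694 and 5494 without SISC replicate 1 or 2 and 3916 and 3549 without LISC replicate 1 or 2.

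**Figure D1:**
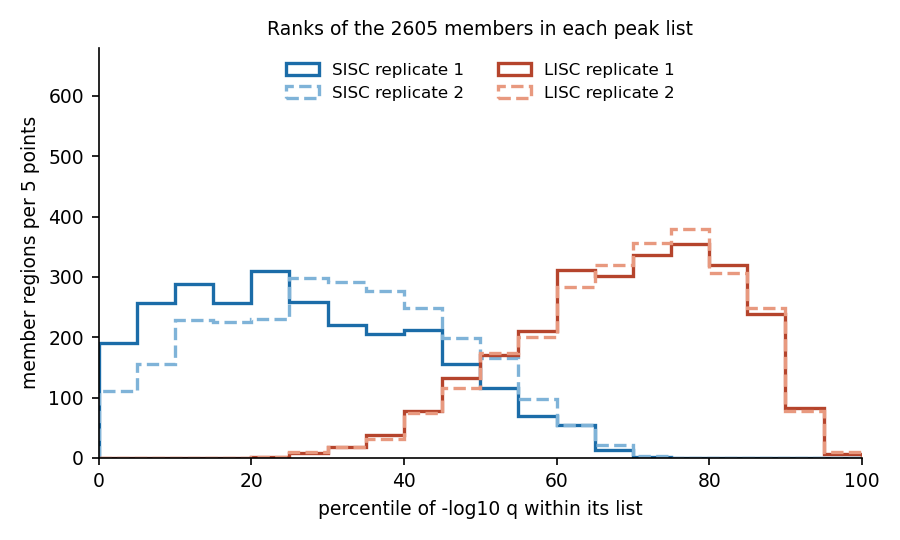
Number of members (y axis) by percentile of −log10 q within each peak list (x axis, bins of 5 points), with SISC in blue, LISC in red, replicate 1 solid and replicate 2 dashed. The SISC medians of 25.0 and 30.7 lie left of the LISC medians of 70.6 and 71.3, and few members reach the top of the LISC lists.

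The threshold cut a continuous range. The 5 members just inside it lay nearest to Degs2, Lin7a, Psmg2, Emp2 and Cryl1, with gaps of 20.01 to 20.05 points. Just outside were regions nearest to Slc44a1, Melk, Rhobtb1, Spocd1 and Galnt7, with gaps of 19.97 to 20.00. The Degs2 region, for example, had percentiles of 55.4 and 55.5 in SISC and 76.6 and 75.5 in LISC, and the Slc44a1 region 59.5 and 58.5 against 85.4 and 79.5.

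Members lay away from gene ends. Only 154 of 2605 (5.91%, exact 95% interval 5.04 to 6.89) were within 1 kb of an end of a protein-coding gene, compared with 11.6% of regions ranked higher in SISC and 25.7% of other shared regions. Gene bodies held 52.4% of members and 40.2% of other shared regions, and 41.7% against 34.1% were intergenic. The median distance to a gene end was 22.5 kb for members, 13.3 kb for regions ranked higher in SISC and 8.71 kb for the rest. A further 370 members (14.2%) were more than 100 kb from any gene end, compared with 7.17% of other shared regions. The widths were alike, with a median of 865 bp for members and 892 bp for other shared regions.

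The strongest shared peaks are often near gene ends, so position was also compared at matched LISC rank. Among regions with both LISC percentiles from 60 to 80, 6.12% of 981 members and 17.2% of other shared regions were near a gene end. From 80 to 100 these shares were 6.21% of 483 members and 54.4%. The members' share therefore stayed near 6% at both levels, while that of other shared regions was higher in the stronger band. Among regions called only in LISC, meaning in both LISC and neither SISC library, 3.73% were near a gene end and 52.2% in a gene body. For regions called only in SISC these shares were 7.11% and 49.4%, so the members' 5.91% near a gene end lay between the 2 kinds.

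Members also lay near regions of the same direction that the rule did not use. A LISC-only region was within 50 kb of 68.3% of members (exact 95% interval 66.4 to 70.0), compared with 44.7% of regions ranked higher in SISC and 52.3% of other shared regions. A SISC-only region was within 50 kb of 42.0% of members, 61.8% of regions ranked higher in SISC and 52.6% of the rest. Thus the 2 kinds of neighbour were about equally common around other shared regions and unequal around both selected sets, in opposite directions. At least 3 LISC-only regions were within 50 kb of 474 members (18.2%), compared with 6.25% of regions ranked higher in SISC and 8.92% of the rest. At LISC percentiles from 60 to 80, 67.2% of members and 55.8% of other shared regions had a LISC-only neighbour, and from 80 to 100, 73.7% and 51.4%. SISC rank was not matched here either. Both kinds of neighbour were found around 28.6% of members and neither around 18.4%. Regions are called from the same libraries and neighbours can overlap in the window, so these intervals cover counting error only.

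**Figure D2:**
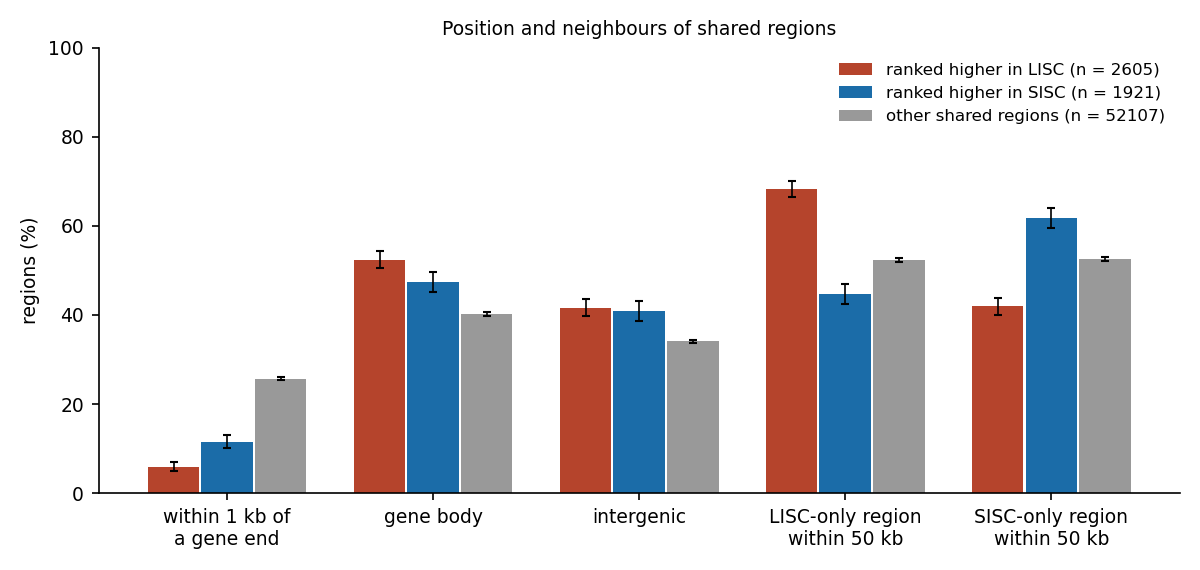
Share of regions in percent (y axis) by position and by neighbour (x axis) for members (red), regions ranked higher in SISC (blue) and other shared regions (grey), with exact 95% intervals as error bars. Members have the lowest share near gene ends (5.91%), and the shares with a LISC-only or a SISC-only neighbour are in opposite order in the red and blue bars.

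Along the chromosome, regions of both selected sets tended to follow their own kind. The next shared region after a member was again a member in 253 of 2604 cases (9.72%), compared with 4.40% after other shared regions and 2.97% after regions ranked higher in SISC. After a region ranked higher in SISC, the next was again of that kind in 116 of 1920 cases (6.04%), compared with 3.37% after other shared regions. There were 29 runs of 3 and 5 runs of 4 consecutive members, against 4 and 1 for regions ranked higher in SISC. The runs of 4 lay near Slc39a10 (zinc transporter, 716.5 kb), Btbd11 (169.0 kb), Orc3, Rars2 and Slc35a1 (53.7 kb), Thbs1 and Fsip1 (50.0 kb) and Slc2a13 (18.9 kb). The share of shared regions that were members ran from 3.47% on chromosome 17 to 5.78% on chromosome 3.

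Peaks of the 2 groups did not always have the same summit. The summits of the 2 LISC libraries were a median of 14 bp apart in members and those of the SISC libraries 33 bp. In 425 members (16.3%) the largest distance between a LISC and a SISC summit was over 200 bp. The same held for 17.5% of regions ranked higher in SISC and 11.2% of other shared regions. Without these regions 5.18% of 2180 members were near a gene end and 68.1% had a LISC-only neighbour.

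None of the 10 members with the largest gaps was within 1 kb of a gene end. The largest, chr3:54170299-54171218 inside Trpc4, a gene for a calcium-permeable cation channel, had percentiles of 10.0 and 8.76 in SISC and 90.5 and 95.1 in LISC, a gap of 80.5. Its −log10 q was 8.004 and 6.69 in SISC and 245.3 and 200.5 in LISC. The next, chr13:102578336-102579381, was 114.2 kb from an end of Cd180, a Toll-like receptor relative of B cells, with percentiles of 5.07 and 2.66 against 84.0 and 89.1. In both regions the SISC peaks lay at or under percentile 10.0 and the LISC peaks at or above 84.0.

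Inside Afap1, for an actin-filament binding protein, chr5:35926937-35928247 had percentiles of 5.07 and 14.9 in SISC and 94.0 and 92.7 in LISC. Inside Trabd2b, for a membrane metalloprotease that cleaves Wnt proteins, chr4:114442663-114444477 had 15.1 and 10.5 against 92.6 and 92.8. It lay among 7 LISC-only and 0 SISC-only regions within 50 kb. Inside Adamts3, for a procollagen-processing protease, chr5:89815889-89817160 had 13.4 and 8.76 against 90.7 and 93.3. These 3 lay 33.6, 36.0 and 66.5 kb from the nearest gene end.

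Of the other 5, the region nearest to Suclg2, a mitochondrial enzyme subunit, was 183.3 kb away and had a gap of 76.5. The region 5.08 kb from Fgg, for the fibrinogen gamma chain, had percentiles of 3.70 and 2.66 in SISC and 79.4 and 86.0 in LISC. The region inside Rnf10 had a gap of 74.7, and those nearest to Rpl17 and Ppp2r2b had gaps of 74.1 and 73.0.

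**Figure D3:**
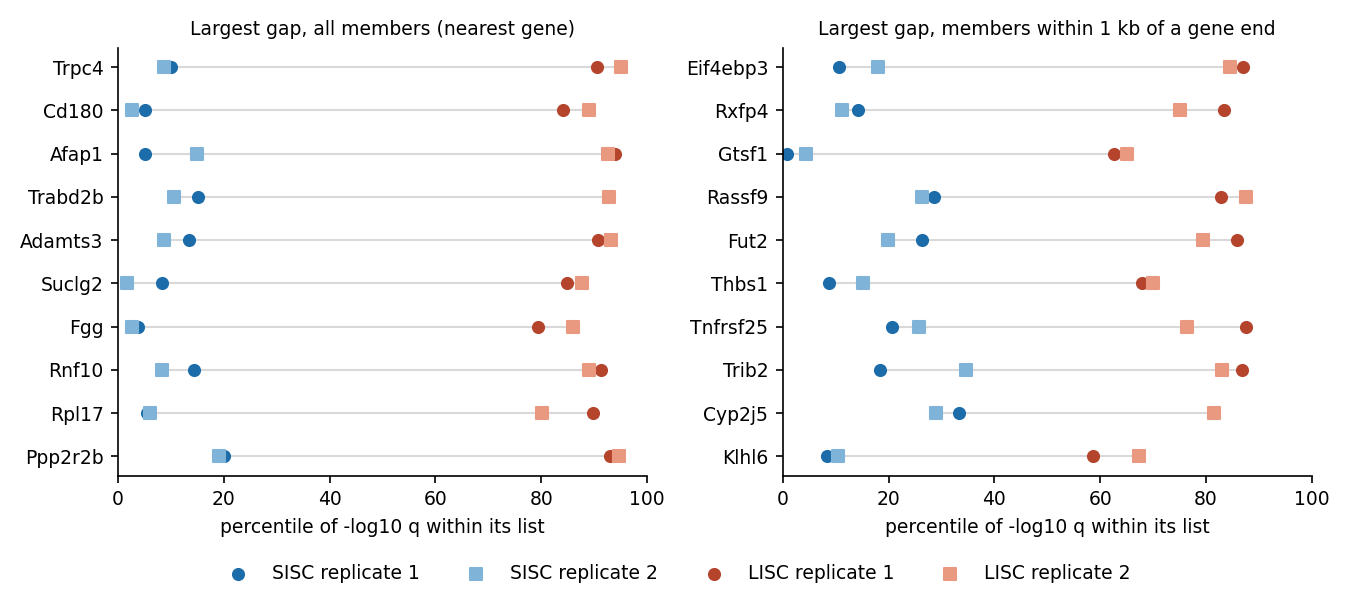
Percentile of −log10 q within each list (x axis) for the 10 members with the largest gap (left, by nearest gene) and the 10 within 1 kb of a gene end with the largest gap (right). Blue marks are SISC and red LISC, circles replicate 1 and squares replicate 2. In every row both red marks lie right of both blue marks, as the rule requires, with 10.0 and 8.76 against 90.5 and 95.1 at Trpc4.

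Among the 154 members near a gene end, the largest gap was 66.6 at Eif4ebp3, for an inhibitor of cap-dependent translation, followed by the Rxfp4 promoter shown above with 60.9. At Fut2, the fucosyltransferase that adds blood-group fucose to intestinal glycans, chr7:45649182-45649896 had percentiles of 26.3 and 19.9 in SISC and 85.9 and 79.5 in LISC. Its −log10 q was 14.8 and 10.5 against 180.4 and 80.8. At Thbs1, for the matrix protein thrombospondin 1, chr2:118125330-118126521 had 8.74 and 15.2 against 67.9 and 70.0. The Fut2 region was thus a stronger peak than the Thbs1 region in every library, with a gap of similar size.

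At Tnfrsf25, a death-domain receptor, the gap was 50.8, with percentiles of 20.7 and 25.7 in SISC and 87.5 and 76.5 in LISC. At Trib2, for a pseudokinase, percentiles of 18.4 and 34.7 faced 86.7 and 83.0. Gtsf1 had a gap of 58.3 and the weakest SISC peaks of the set, at 0.840 and 4.36. Rassf9 had a gap of 54.2, Cyp2j5, a cytochrome P450 of fatty acid oxidation, and Klhl6 both one of 48.2.

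Members were next grouped by gene. A member was given to the protein-coding gene with the nearest end if that lay within 100 kb, which does not show that it regulates that gene. This placed 2235 members among 52354 placed shared regions (4.27%), beside 1746 regions ranked higher in SISC (3.33%). Over all placed regions the median difference in percentile, LISC mean minus SISC mean, was -0.73. The 23 gene lists held 372 genes. Because they were drawn up with earlier results of these data known, their counts are descriptions. Leaving out a library raised the counts of most lists, as it did the total, and is given below for the larger ones.

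The anterior Hox genes, groups 1 to 8 of the homeobox clusters that set position along the body axis, had the highest share of members of any list with over 5 shared regions. Of their 49 shared regions, 12 were members (24.5%) at 8 genes, and 0 ranked higher in SISC. The median difference was 12.8 points. Hoxb6 held 3, and the strongest, chr11:96298786-96299578 in its gene body, had percentiles of 23.5 and 27.9 in SISC and 78.5 and 77.3 in LISC. The region 0.186 kb from its end, chr11:96291736-96292628, had 17.5 and 18.3 against 78.5 and 64.2. Both Hoxb6 regions lay among 8 LISC-only and 3 SISC-only regions within 50 kb.

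Hoxb1 held 2 members. The region near an end of Hoxb1, chr11:96365968-96367184, had percentiles of 13.4 and 31.3 in SISC and 70.2 and 68.7 in LISC. Hoxa3, Hoxa5, Hoxb8, Hoxd3 and Hoxd4 held 1 each, with gaps from 28.2 at Hoxb8 to 49.4 at Hoxd4. Posterior Hox genes, groups 9 to 13, had 4 members of 32 shared regions (12.5%) and 0 ranked higher in SISC, with 2 at Hoxb9 and 2 at Hoxb13, a factor of the hindgut. The Hoxb13 region over a gene end, chr11:96193568-96195154, had 34.6 and 18.3 in SISC and 55.1 and 55.0 in LISC, just past the threshold. By cluster, HoxB genes had 10 members of 27 shared regions and HoxC genes 0 of 12, and at 6 of the 7 HoxC genes with a shared region the median difference was below 0, from -2.26 at Hoxc4 to -30.1 at Hoxc13.

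The Hox counts depended on the measure. When peaks were ranked by fold enrichment, 4 anterior Hox regions ranked higher in LISC and 4 in SISC, and 1 and 3 at posterior Hox genes. At Hoxb8 the authors' fold enrichment was 2.68 and 2.41 in SISC and 2.49 and 2.12 in LISC, and −log10 q was 8.68 and 8.49 against 33.3 and 20.4. At Hoxd4 fold enrichment was 2.77 and 2.67 in SISC and 5.99 and 5.10 in LISC. Towards LISC and SISC the anterior counts were 17 and 2 without SISC replicate 1 and 20 and 0 without SISC replicate 2. They were 12 and 2 without LISC replicate 1 and 18 and 0 without LISC replicate 2. In the same order the posterior counts were 5 and 2, 12 and 1, 6 and 1, and 8 and 1.

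Genes typical of the large-intestinal epithelium had 9 members and 6 regions ranked higher in SISC among 123 (7.32% and 4.88%). Slc26a3, the chloride-bicarbonate exchanger of colonic surface cells, had the largest gap of the list, 50.9 at chr12:31400645-31401571, with percentiles of 13.4 and 37.8 in SISC and 89.5 and 88.7 in LISC. Foxd2, a forkhead factor, held 2 members, and the stronger, 70.4 kb away at chr4:114834766-114835901, had 35.5 and 32.5 against 90.5 and 84.6. Car2, Car4, Nr3c2 and Muc3 held 1 each. Without SISC replicate 1 or 2 the list had 14 and 22 members and 13 and 6 regions ranked higher in SISC, and without LISC replicate 1 or 2 it had 13 and 14 against 16 and 9. Among the strongest 50% of each list the counts were 3 and 6, so the direction of this list was not stable.

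Genes for transport and sensing of short-chain fatty acids, which bacteria of the large intestine produce, had 6 members of 65 (9.23%) and 0 ranked higher in SISC. Pparg, a nuclear receptor activated by fatty acids, held 3 of its 11 shared regions. The one with the largest gap, chr6:115332605-115333856, had percentiles of 23.1 and 43.9 in SISC and 87.3 and 89.8 in LISC. It lay among 7 LISC-only and 0 SISC-only regions. Slc16a1, a monocarboxylate transporter for butyrate and lactate, held 2, and at chr3:104611970-104612605 had 20.8 and 25.9 against 73.1 and 72.0. Slc5a8, a sodium-coupled monocarboxylate transporter, held 1, at 28.6 and 23.7 against 55.5 and 53.8. The receptor genes Ffar2, Ffar3 and Hcar2 held 0 members, with median differences of 6.43, -11.3 and 2.45. Slc16a3 also held 0, with a median difference of -16.1. The members of this list thus did not lie at these sensing genes. Ranked by fold enrichment the list had 5 towards LISC and 4 towards SISC. In the same order it had 13 and 2 without SISC replicate 1 and 10 and 0 without SISC replicate 2. Without LISC replicate 1 it had 8 and 2, and without LISC replicate 2 it had 7 and 1. Among the strongest 50% of each list it had 1 and 0 of 38. In that setting 3.63% of all shared regions met the rule towards LISC.

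Goblet and deep crypt secretory genes had 6 members of 65 (9.23%) and 0 ranked higher in SISC. Reg4, a lectin that marks deep crypt secretory cells, held 3 of its 10 shared regions. The one with the largest gap, 18.1 kb away at chr3:98202838-98204055, had percentiles of 31.1 and 17.4 in SISC and 84.5 and 70.1 in LISC. The regions over the Reg4 gene ends had gaps of 26.3 and 25.7. Muc2, shown above, held 1 of 2. Atoh1, the factor that commits cells to the secretory lineage, and Creb3l4 held 1 each, with gaps of 22.6 and 23.2. Towards LISC and SISC the list had 10 and 0 when SISC replicate 1 was left out and 15 and 0 for SISC replicate 2. It had 10 and 2 for LISC replicate 1 and 8 and 2 for LISC replicate 2. Ranked by fold enrichment the counts were 4 and 1, and among the strongest 50% of each list 2 and 1.

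Markers of other cells were compared because the gates of the groups differed. Gene ends of all 10 epithelial markers and of 14 of 16 stem cell markers were accessible in all 4 libraries. For goblet and deep crypt secretory markers the number of 14 was 11, 11, 10 and 11 in SISC replicates 1 and 2 and LISC replicates 1 and 2. In the same order it was 3, 3, 2 and 3 of 6 for Paneth markers and 12, 12, 13 and 12 of 19 for enteroendocrine markers. For tuft markers it was 7, 8, 7 and 7 of 10. For immune markers it was 6, 6, 5 and 4 of 13, and for stroma, endothelium, muscle and glia 9, 10, 9 and 5 of 14. The part of other cells in the members was not tested. Immune markers held 1 member of 14 shared regions, at Ptprc, and stromal markers 0 of 48. The sort markers held none: Lgr5 had 0 members and 1 region ranked higher in SISC among 6, and Cd24a 0 and 0 among 9.

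The stem cell list was evenly split, with 8 members and 9 regions ranked higher in SISC among 144. Hopx, a homeodomain protein of slow-cycling cells, had the largest gap, 51.6 at chr5:77147548-77148482, with percentiles of 24.5 and 31.3 in SISC and 82.9 and 85.1 in LISC. Sox9, a factor of crypt progenitors, and Lrig1, which restrains EGF receptors, held 3 each with gaps from 20.3 to 27.8, and Ephb2 held 1 of 28.7. Towards LISC and SISC the counts were 13 and 14 when SISC replicate 1 was left out, 16 and 9 for SISC replicate 2, 15 and 15 for LISC replicate 1 and 10 and 15 for LISC replicate 2.

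Wnt pathway genes had 18 members at 13 genes and 12 regions ranked higher in SISC among 254 (7.09% and 4.72%). Among the receptors, Fzd1, Fzd7, Lrp5, Lrp6 and Lgr4 held 1 each, and Znrf3, the ligase that removes Frizzled, held 1. Among the transcription factors, Tcf7l1 held 4 of its 12 shared regions and Tcf7l2 held 3 of 31, with 2 ranked higher in SISC. At Tcf7l1, chr6:72655342-72656555 had percentiles of 11.7 and 5.36 in SISC and 77.1 and 60.8 in LISC, and chr6:72623788-72624667 had 4.53 and 26.7 against 72.9 and 74.2. The largest Tcf7l2 gap was 33.9, at chr19:55756629-55757230. Of the targets, Ccnd1, for cyclin D1, had a gap of 42.0. The members were thus spread over receptors, factors and targets. Among the strongest 50% of each list the Wnt counts were 1 and 3. The counts were 28 and 24 when SISC replicate 1 was left out, 27 and 15 for SISC replicate 2, 30 and 22 for LISC replicate 1 and 20 and 22 for LISC replicate 2.

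BMP and TGF-beta genes had 8 members and 5 ranked higher in SISC among 169, and 4 of the members were at Id2, an inhibitor of helix-loop-helix factors and a BMP target. The 2 Id2 regions with the largest gaps, 53.5 and 49.9, were chr12:25181351-25181842 and chr12:25177715-25178182, 85.3 and 81.6 kb away. Tgfbr2 held 2, and Smad1 and Smad6 held 1 each. EGF family genes had 4 members, all at ligands, and 1 region ranked higher in SISC among 60. Btc held 2, and Tgfa and Areg 1 each. The larger Btc gap was at chr5:91303672-91304220, with percentiles of 14.4 and 20.2 in SISC and 66.3 and 60.6 in LISC. Ranked by fold enrichment, the counts were 5 and 6 for the BMP list and 3 and 3 for the EGF list, so neither kept its direction. Without SISC replicate 2, they were 20 and 6 and 9 and 1. Without SISC replicate 1 they were 13 and 14 and 7 and 6, without LISC replicate 1 10 and 13 and 6 and 6, and without LISC replicate 2 13 and 12 and 6 and 5.

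Factors of intestinal identity had 6 members and 3 ranked higher in SISC among 137. Klf4, a factor of goblet cell maturation, held 3 of 13. The largest gap was at chr4:55624306-55625265, with percentiles of 46.1 and 43.1 in SISC and 85.4 and 87.6 in LISC. Foxa2, Isx and Elf3 held 1 each. The identity counts were 9 and 10 without SISC replicate 1 and 6 and 7 without LISC replicate 2. The Notch list had 3 and 5 of 96, its largest gap at Notch2, a receptor, where chr3:98021479-98022384 had 24.2 and 14.5 against 83.5 and 75.6. Innate defence genes had 3 and 2 of 51, with members at Nod1, Nod2 and Ccl20, and 0 and 2 when ranked by fold enrichment. The shares of members in these 3 lists, from 3.13% to 5.88%, lay on both sides of the 4.27% over all placed regions.

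Of the lists of genes known for work in the small intestine, 3 had a share of members under the 4.27% over all placed regions and 1, bile acid handling, had a higher one. Brush border genes had 1 member (1.12%), at Slc3a1, and 15 regions ranked higher in SISC among 89. Proximal transcription factors had 2 (2.41%) and 10 of 83, with members at Gata6 and at Hes1, and lipid absorption genes 2 (2.90%) and 5 of 69, at Dgat2 and Fabp1. Bile acid genes were split 3 and 3 of 32 (9.38% each), and 2 of the members lay near Slc10a2, the bile acid transporter of the ileum. At chr8:5128892-5129846 the percentiles were 21.6 and 12.3 in SISC and 87.8 and 88.9 in LISC, a gap of 66.2, and at chr8:5073517-5074245 they were 27.3 and 23.7 against 90.6 and 87.3, a gap of 59.98. These were the largest gaps of any list gene, although 1 of the 7 shared regions at Slc10a2 ranked higher in SISC. Towards LISC and SISC the bile acid list had 0 and 2 of 20 when a peak had to cover 50% of its region. Among the strongest 50% of each list it had 0 and 0 of 13, and ranked by fold enrichment 2 and 2 of 32.

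The remaining lists held single members. Itln1, an intelectin of Paneth and goblet cells, had a gap of 54.6 at chr1:171514971-171516169, and Neurod1, a factor of enteroendocrine cells, one of 49.5. Sh2d6 of the tuft list had 22.5 and Epcam of the epithelial list 27.1. Members and regions ranked higher in SISC numbered 1 and 0 of 5 for the Paneth list and 1 and 2 of 24 for the enteroendocrine list. They numbered 1 and 1 of 38 for the tuft list and 1 and 2 of 77 for the epithelial list. Except in the small Paneth list, these shares of members lay under the 4.27% over all placed regions. Cell cycle genes had 0 members and 3 regions ranked higher in SISC among 53.

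**Figure D4:**
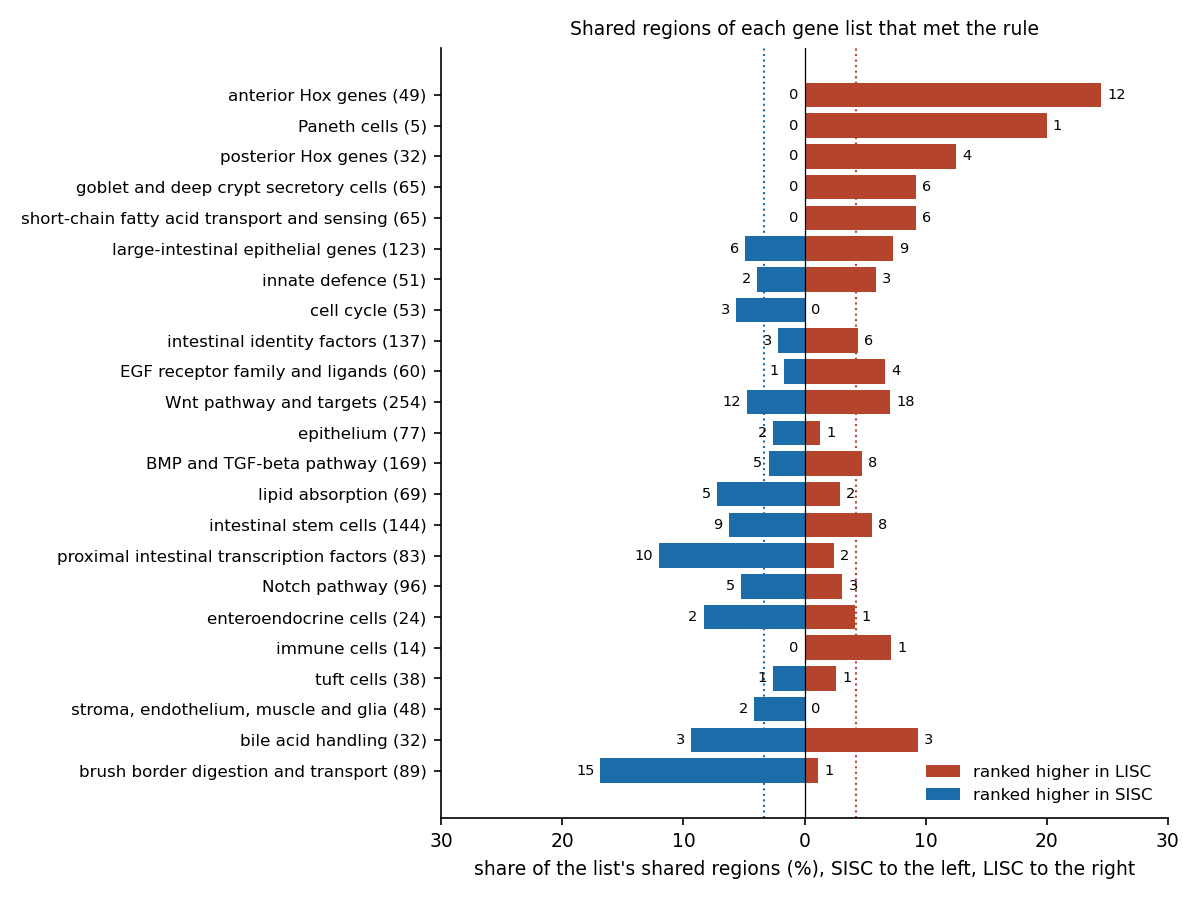
Share of the shared regions of each gene list (rows, number of shared regions in brackets, ordered by median difference) that ranked higher in LISC (red, right) or in SISC (blue, left), in percent on the x axis, with the number of regions beside each bar. Dotted lines mark the shares over all placed regions, 4.27% and 3.33%. Anterior Hox genes extend farthest right, at 24.5%, and brush border genes farthest left, with 15 regions.

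Of 1827 genes with a member, 1511 had 1, 238 had 2 and 78 had 3 or more, whereas 17 genes had 3 or more regions ranked higher in SISC. Of the 78, 69 also had a LISC-only region and 44 a SISC-only region. The same shares over genes with as many shared regions are not given here, so these counts are a description only. Slc2a13, the proton and myo-inositol cotransporter, had the highest share among the genes with most members: 5 of 7 shared regions, with 4 LISC-only and 0 SISC-only regions. Its region near one end of the gene, chr15:91268347-91269317, had percentiles of 60.6 and 49.1 in SISC and 85.3 and 91.2 in LISC, and 4 lay close together at chr15:91548227-91567150 with gaps of 20.4 to 28.2. The Slc2a13 regions were thus many, each with a modest gap.

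Abca12, a lipid transporter of epithelial barriers, had 4 of 6, led by chr1:71372798-71373908 at 34.4 and 25.0 in SISC and 91.8 and 88.5 in LISC. Its promoter region, chr1:71414491-71415215, was a member too, at 23.1 and 38.8 against 80.8 and 76.2. Prkce, for protein kinase C epsilon, had 4 of 16, led by chr17:86595373-86596234 with a gap of 63.5. Most of the shared regions of Prkce did not meet the rule, unlike those of Abca12.

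Chst11, a chondroitin sulfotransferase gene, had 5 of 18, with gaps of 20.2 to 25.1. Daam1, a formin regulator of Wnt planar polarity, had 4 of 16 and 8 LISC-only regions. Sh3rf1 and Mllt3 had 4 of 21 each, and the Mllt3 member over a start site, chr4:87806141-87807077, had 7.57 and 9.98 in SISC and 64.0 and 55.0 in LISC. Adk, for adenosine kinase, had 4 of 16 and also 2 regions ranked higher in SISC. Id2 and Tcf7l1, described above, complete the 10. When a region inside a gene was given to that gene, 103 genes had 3 or more members and Foxp1, a forkhead factor gene, led with 7 of 45. By nearest gene end, genes with 3 or more numbered 227 and 337 without SISC replicate 1 or 2 and 163 and 139 without LISC replicate 1 or 2.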

How the data were processed

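ATAC-seq peak lists of 4 libraries were used, SISC and LISC with 2 each, on the mm10 build. The submitters' processing notes name MACS2 2.2.7.1, Bowtie2 2.3.4.1, cutadapt 3.4, bedtools and Picard. Not given in the sources used here are their settings, the calling threshold, the treatment of duplicates and any shift for the Tn5 insertion site. Per the labels, 50000 cells went into each library, with 10 PCR cycles.

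The authors deposited 1 MACS2 list per library, with a fold enrichment (a ratio) over local background at each peak summit. The −log10 p-value and −log10 q-value of each peak are likewise the authors' deposited values, as is a score that was not used here. The lists held 83443, 93220, 91313 and 88739 peaks (SISC replicates 1 and 2, LISC replicates 1 and 2). Read depth is unknown, these values depend on it, and the groups were compared by rank within a list.

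Genes were the 21887 protein-coding genes of a RefSeq table of GRCm38.p6. The table has no strand, so both ends of a gene were treated alike. Promoter windows came from a RefSeq table with strand. Intervals are exact (Clopper-Pearson, 95%). The members, the rule and the 23 gene lists (372 genes, all in the table) were chosen with earlier results of these data known, so no test was made.

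The text names the 10 members with the largest gap, overall and within 1 kb of a gene end, the 5 on each side of the threshold, the 10 genes with most members, up to 3 genes per list, and Lgr5 and Cd24a. Other list genes and Guca2a were named after their values were seen. A few items that the naming rule selects are not reported here. Alternatives covered the measure ranked, the overlap, the gap, the distances, weak peaks and each library. Same-numbered libraries did not deviate together (Pearson r = 0.00809 over 56633 regions), so the numbers were not taken as pairs. The Y-chromosome peaks did follow the replicate number in both groups. The correlation cannot show whether same-numbered libraries shared an animal or a batch. Scripts were tested on simulated peaks, and merging was checked against bedtools 2.31.1. The scripts ran on Python 3.11.15 with scipy 1.17.1, pandas 2.3.3, numpy 2.4.6 and, for figures, matplotlib 3.10.9.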

Additional observations from a re-analysis of the deposited data

Results flagged for a closer look

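The X chromosome was outside the rule, which covered chromosomes 1 to 19, and was examined as data the comparisons did not use. Of 1146 X regions called in all 4 lists, 54 (4.71%) met the 20 point gap towards LISC and 22 (1.92%) towards SISC, beside 4.60% and 3.39% on the autosomes. The largest gap was 53.8, inside Diaph2 at chrX:130241838-130242317, with percentiles of 8.36 and 8.76 in SISC and 65.3 and 62.6 in LISC. At a gene end the largest gap was 49.4, at Slc6a14, an amino acid transporter gene, with 8.36 and 28.9 against 84.4 and 78.3. Replicate 1 of each group had Y-chromosome peaks, 6 in SISC and 8 in LISC, and replicate 2 of each group had 0, so each group held 1 library with Y peaks and 1 without.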

How the results depend on the processing

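In every setting tried, members were less often near a gene end than regions ranked higher in SISC or other shared regions, and more often had a LISC-only neighbour than other shared regions. The counts moved. When a peak had to cover 50% of its region there were 996 members, 74.0% with a LISC-only and 52.3% with a SISC-only neighbour, and 5 genes with 3 or more. Using the strongest 50% of each list gave 1109 members, 7.94% near a gene end, 47.1% and 28.1% with these neighbours and 4 such genes. Only 162 of the 2605 members remained there, because most SISC peaks of members are weak. Ranked by fold enrichment, the neighbour shares were 64.0% and 46.6% with 37 genes, and 1738 members remained. Percentiles over shared regions only gave 122 genes. A gap of 10 points gave 5488 members, 45.4% with a SISC-only neighbour and 338 genes, and a gap of 30 gave 1235, 70.8% with a LISC-only neighbour and 12 genes. With 1 library left out, the ranges were 3549 to 5494 members, 5.46 to 6.50% near a gene end, 70.9 to 80.8% and 53.1 to 65.8% with these neighbours and 139 to 337 genes. Gene ends within 500 or 2500 bp gave 4.15% and 11.1%. Neighbourhoods of 20 and 100 kb gave 44.3% and 84.8% with a LISC-only and 20.6% and 62.8% with a SISC-only neighbour. Around other shared regions these shares moved too. LISC-only and SISC-only neighbours were at 58.4% and 58.9% with 50% coverage and 35.4% and 34.5% among the strongest 50%. Ranked by fold enrichment they were 52.5% and 52.6%, and with 1 library left out 57.5 to 68.5% and 60.8 to 78.6%. At 20 and 100 kb they were 28.6% and 73.3% for LISC-only and 28.8% and 72.8% for SISC-only. Chosen after seeing the data, leaving out regions with summits over 200 bp apart gave 45 genes and leaving out percentiles under 10 gave 44. The replicate block, which asked for the gap only within same-numbered pairs, gave 3182 members, with all 2605 kept. Where no reason is given, the cause was not tested. The planned motif search around summits was not run, as no genome was used here. Unknown read depth limits every level.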
